A study of Mus musculus with 4 samples.

Results

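The genes described here encode the receptors for the classical neurotransmitters: the ionotropic and metabotropic glutamate receptors, the GABA-A, glycine and nicotinic receptor subunits, and the muscarinic, serotonin, dopamine, adrenergic, adenosine and P2 purine receptors. They were chosen by the letters of their gene symbols. Of 115 mouse genes whose symbols follow these patterns in the GENCODE M21 annotation, 72 were among the 14924 genes with values in the lens, and the other 43 were not analysed here. RNA was measured by mRNA-seq in 4 libraries of whole lenses from mice at 1 month of age, 2 of S100A4-/- (S100A4 null) lenses and 2 of littermate wild type (WT) lenses, each pooled from 6 to 12 lenses. All mice were on a C57BL/6J background, the WT mice carried no deletion, and no promoter or Cre that would confine the loss of S100A4 to the lens is named for the null line. Because whole lenses were lysed, fewer cells of a type and less RNA per cell cannot be told apart in any value below.

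Neurotransmitter receptors fall into ligand-gated ion channels, which are built from several subunits around a pore and act within milliseconds, and G protein-coupled receptors, which act more slowly through second messengers. Glutamate and acetylcholine channels mostly excite a cell, and GABA and glycine channels mostly inhibit it. The lens has no neurons, but lens cells are known to respond to acetylcholine, ATP and adrenaline through muscarinic, P2 and adrenergic receptors with changes in cytosolic calcium.

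Expression was measured as reads counted on a gene after scaling by 1 size factor per library. In this unit a read counted for 0.856 and 1.01 in the first and second S100A4-/- libraries and 1.04 and 1.09 in the first and second WT libraries, so that a value lies close to a number of reads. The S100A4-/- libraries held 81602367 and 74108017 reads on genes, and the WT libraries 70253985 and 68038158. In all values below, the first S100A4-/- or WT library is named before the second. *S100a4* itself had values of 14.6 and 18.2 in the S100A4-/- libraries against 14420 and 14385 in the WT libraries, as their labels say. The lens markers were present as well, with all 14 listed genes measured, a summed value of 27878381 to 30270432 across the 4 libraries, and *Cryaa*, the alpha A crystallin, as the most abundant.

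Upstream sequences are shown for 4 receptor genes with higher values in S100A4-/- lenses, and for *Glrb*, the receptor gene nearest to *Gria2* on the chromosome, which did not pass the threshold. They are RefSeq windows on GRCm38.p6, the 250 bases before the transcription start, read 5′ to 3′ on the gene's own strand, with CG dinucleotides in capitals. The windows are chr3:80802836-80803085 (minus strand) for *Gria2*, chr3:80913661-80913910 (minus) for *Glrb*, chr9:4796235-4796484 (minus) for *Gria4*, chr1:134235458-134235707 (minus) for *Adora1* and chr11:50850435-50850684 (plus) for *Grm6*.
Gria2: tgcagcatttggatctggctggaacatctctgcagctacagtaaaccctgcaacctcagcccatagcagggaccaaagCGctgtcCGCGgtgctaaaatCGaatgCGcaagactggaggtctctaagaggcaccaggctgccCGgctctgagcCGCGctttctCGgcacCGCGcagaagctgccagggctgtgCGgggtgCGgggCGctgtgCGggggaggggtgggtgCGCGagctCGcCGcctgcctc
Glrb: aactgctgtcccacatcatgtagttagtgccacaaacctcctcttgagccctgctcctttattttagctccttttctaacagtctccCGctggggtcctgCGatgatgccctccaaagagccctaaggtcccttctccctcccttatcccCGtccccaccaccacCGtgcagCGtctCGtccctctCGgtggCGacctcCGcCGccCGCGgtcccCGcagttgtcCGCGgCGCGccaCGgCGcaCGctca
Gria4: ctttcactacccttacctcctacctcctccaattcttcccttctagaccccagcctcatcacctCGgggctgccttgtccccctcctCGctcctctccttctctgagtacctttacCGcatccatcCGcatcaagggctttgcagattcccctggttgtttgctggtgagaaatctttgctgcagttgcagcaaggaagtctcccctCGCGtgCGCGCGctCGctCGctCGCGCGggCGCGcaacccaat
Adora1: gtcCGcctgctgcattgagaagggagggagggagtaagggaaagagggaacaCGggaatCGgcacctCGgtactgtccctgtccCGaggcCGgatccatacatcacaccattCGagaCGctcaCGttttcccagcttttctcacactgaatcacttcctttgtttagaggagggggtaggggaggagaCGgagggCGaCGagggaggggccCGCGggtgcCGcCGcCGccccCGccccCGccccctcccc
Grm6: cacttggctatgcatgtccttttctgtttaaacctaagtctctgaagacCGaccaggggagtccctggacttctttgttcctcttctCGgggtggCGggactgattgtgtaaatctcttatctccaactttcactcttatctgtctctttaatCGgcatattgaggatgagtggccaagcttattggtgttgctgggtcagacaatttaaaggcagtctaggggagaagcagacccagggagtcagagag

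The windows of *Gria2* and *Adora1* each held 19 CG dinucleotides, that of *Glrb* 20 and that of *Gria4* 16, against a median of 5 over the windows of 27025 genes. *Grm6* had 4. The CG-rich windows thus include both receptor genes with higher values and *Glrb*, whose value did not pass the threshold. Searched on both strands, the letters GGACAGC, a stretch of the consensus of the neuronal repressor REST, occurred in the windows of *Gria2* and *Glrb* and in 5.22% of all windows. They also occurred in those of *Grm2*, *P2rx4*, *Drd2* and *Htr5a*, which did not pass the threshold, and in no other higher receptor gene with a window. TCAGCACC, another stretch of that consensus, occurred in 1.26% of all windows, and TAATCC, the core bound by OTX and CRX homeodomain proteins, in 6.42%. Neither of these was found in the 5 windows shown, and the motifs do not overlap each other. A window was found for 50 of the 72 receptor genes (69.4%), too few for a comparison over the receptor genes as a set, which is therefore void.

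In WT lenses most receptor genes were expressed at low levels. Their median WT value was 20.8, against 300.4 over all genes. Divided by the length of the annotated exons, the median was 4.74 per kb for receptor genes and 66.7 per kb for all genes. The values reached at least 100 in WT in 19 of the 72. *Chrna4*, the alpha 4 subunit of nicotinic acetylcholine receptors, had the highest level of all receptor genes, with 1310 and 1404 per kb in the WT libraries, and 95.6% of all genes had a lower level per kb. It was followed by *Adra2c*, the alpha 2C adrenergic receptor, with 555 and 564 per kb, and *Grid1*, an orphan member of the ionotropic glutamate receptor family that binds cerebellins at synapses, with 360.4 and 365 per kb. *Grm4*, a metabotropic glutamate receptor that lowers cyclic AMP, came next with 325 and 349 per kb, and *Grik5*, a kainate receptor subunit, with 185 and 191 per kb. Each of these 5 genes lay above the next in both WT libraries.

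Below them, *Gabra3* and *Gabrg3*, subunits of GABA-A receptors, and *Chrnb1*, the beta subunit of the muscle nicotinic receptor, had means of 126.8, 123 and 126 per kb. These 3 overlapped in the WT libraries, and their order is not resolved. The D4 dopamine receptor gene *Drd4* had 105 ± 2.86 per kb (SD, n = 2 libraries) and *P2ry2*, a receptor for ATP and UTP coupled to calcium release, had 90.7 ± 12.0 per kb (SD, n = 2). The levels of *P2ry2* and the next gene, *Chrna5*, overlapped. The first 2 places were the same in S100A4-/- lenses, where the order of *Grid1* and *Grm4* differed between the libraries.

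**Figure D1:**
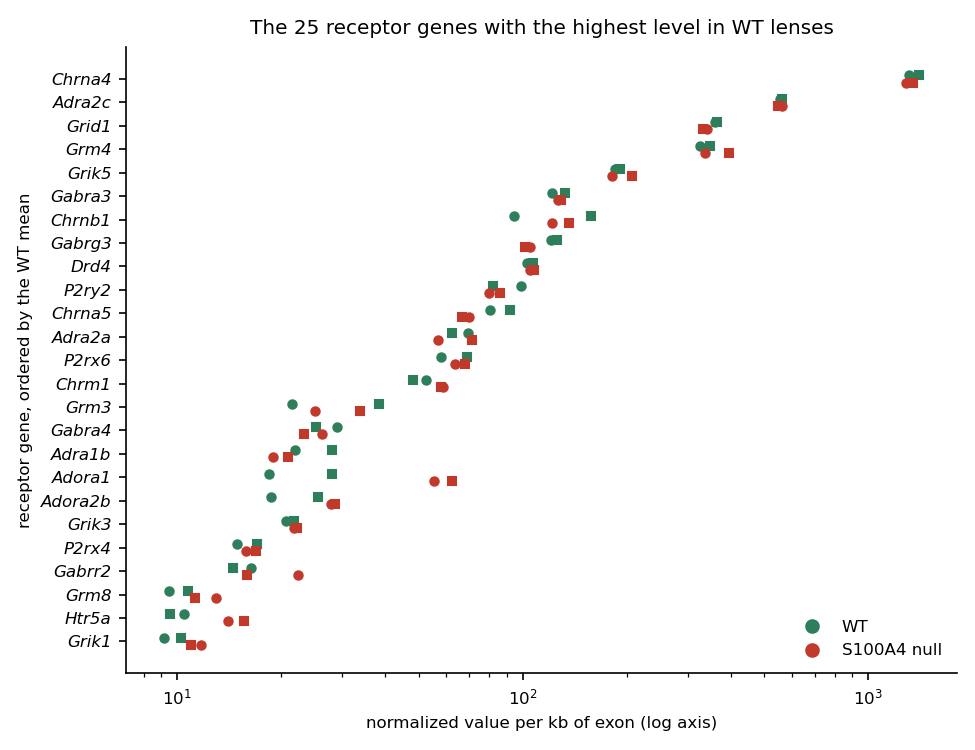
Normalized value per kb of annotated exon (log axis) of the 25 receptor genes with the highest mean level in WT lenses, with 1 point per library, WT in green and S100A4-/- in red, circles for the first and squares for the second library. *Chrna4* stands highest at 1310 to 1404 per kb in WT, and *Adora1* is the one gene of the 25 that passed the threshold for a difference between the groups.

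The abundant receptor genes differed little between the groups. *Chrna4* had values of 6458 and 6755 in S100A4-/- and 6581 and 7051 in WT. These overlapped, and the log2 fold change was -0.04 with a 95% interval of -0.14 to 0.05. For *Adra2c* the values were 1938 and 1892 against 1912 and 1941, and the interval of the log2 fold change was -0.13 to 0.11. *Grik5* had 939 and 1068 against 956 and 985, which overlapped as well. *Grm4* had 2017 and 2368 against 1945 and 2088, with an interval of -0.02 to 0.25. Both *Grid1* values in S100A4-/-, 2040 and 1986, lay below both in WT, 2149 and 2176, but the log2 fold change of -0.10 (SE 0.06) did not pass the test (adjusted p = 0.381, limma).

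Higher values in S100A4-/- lenses were found for 13 receptor genes, and lower ones for none. A gene passed when it differed at least 2-fold with an adjusted p of at most 0.05 (limma on log2(value + 1), Benjamini-Hochberg over 14780 genes). The 13 are 18.8% of the 69 receptor genes tested, where 3.65% of all genes tested passed in this direction and 0.0744% in the other. At an unadjusted p under 0.05, 18 receptor genes were higher and 2 lower, against 11% and 6.71% of all genes. In all 13 the S100A4-/- libraries lay above the WT libraries without overlap, as they did for 33 of the 69 receptor genes and 23.7% of all genes. The opposite separation held for 5 receptor genes and for 23.2% of all genes. DESeq2's test on the recovered reads called 8 receptor genes higher and 0 lower, and 2.82% and 0.0402% of all genes, and edgeR's called the same 13 as limma, where 3.74% of all genes were higher. The 5 genes that DESeq2 did not call were *Chrnb3* (adjusted p = 0.0573), *Gabrq* (0.0637), *Grm6* (0.0729), *Grm7* (0.102) and *Grin2b* (0.137), and none of these 5 passed with quantile normalization either.

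The median log2 fold change of the 69 receptor genes was 0.38, against -0.01 over all genes tested. It differed with the level of the genes. Among 43 tested receptor genes with a mean value under 50, 11 were higher and the median was 0.75, where 7.5% of all genes of that level were higher and their median was 0.20. Among the 26 with a mean of at least 50, 2 were higher, *Adora1* and *Chrnb4*, and the median was 0.04, where 2.48% of all genes of that level were higher and their median was -0.02. A gene entered the test with a value of at least 10 in any library. This minimum was reached in a WT library by 51 receptor genes, of which 6 (11.8%) were higher, where 3.05% of all genes that reached it there were higher. It was reached in S100A4-/- libraries alone by 18, of which 7 (38.9%) were higher, namely *Gria2*, *Gria4*, *Grin2b*, *Grm7*, *Gabrr1*, *Chrna6* and *Chrnb3*. Genes of this kind could hardly have been lower, and of all genes that entered this way 14.7% were higher. In no library was it reached by *Grik4*, *Gabrd* and *Htr1b*, which were not tested.

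**Figure D2:**
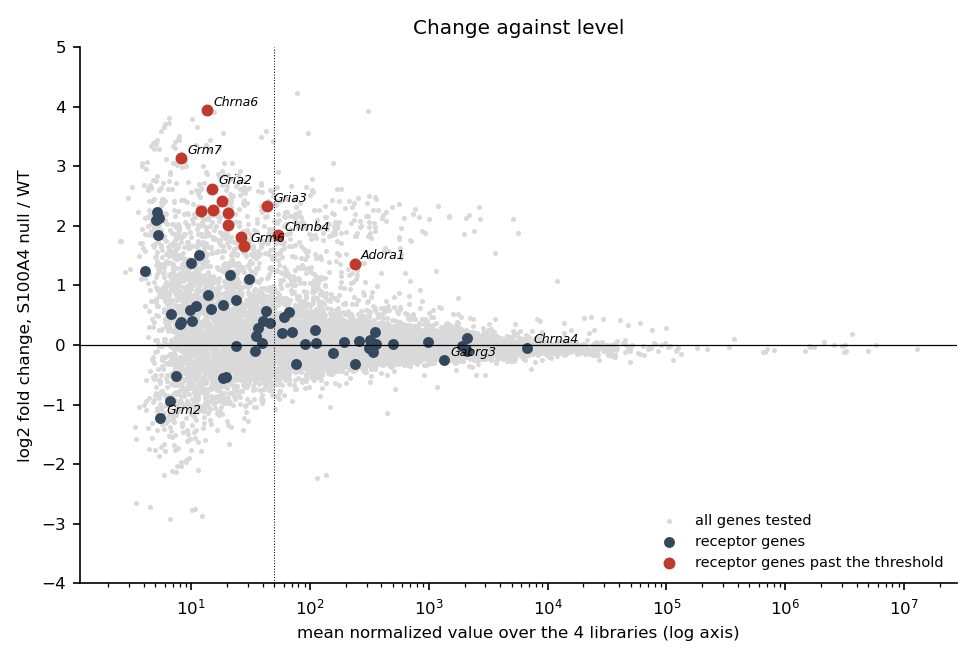
Log2 fold change (S100A4-/- over WT) against the mean normalized value of the 4 libraries (log axis), with all genes tested in grey, receptor genes in dark blue and the 13 receptor genes past the threshold in red. The dotted line marks a mean of 50, to the right of which 2 of the 13 lie. *S100a4* and *S100a5*, at -9.70 and 7.94, fall outside the axis.

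**Figure D3:**
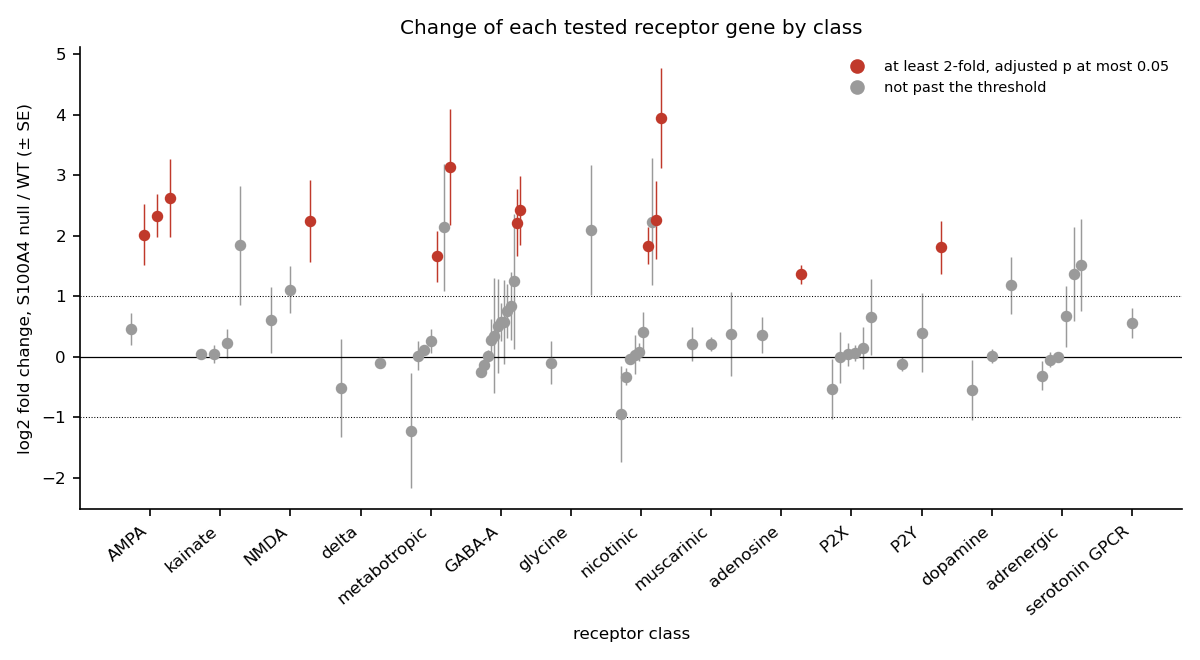
Log2 fold change (S100A4-/- over WT) of each of the 69 tested receptor genes by receptor class, with bars of 1 SE and dotted lines at a 2-fold change. Points in red passed the threshold: 3 AMPA, 1 NMDA, 2 metabotropic glutamate, 2 GABA-A, 3 nicotinic, 1 adenosine and 1 P2Y receptor gene.

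Among glutamate receptor genes, 6 of the 20 tested were higher and none lower, beside 3.65% and 0.0744% of all genes tested. Of the 6, *Gria2*, *Gria4*, *Grin2b* and *Grm7* reached a value of 10 in S100A4-/- libraries alone and could hardly have been lower. AMPA receptors carry most fast excitatory transmission in brain and retina, and of their 4 subunit genes 3 were higher. *Gria2* (ENSMUSG00000033981, chromosome 3 from 80681450 to 80802835 on GRCm38) encodes the subunit that keeps AMPA receptors nearly impermeable to calcium. Its values were 26.5 and 26.4 in S100A4-/- and 5.22 and 2.19 in WT, a log2 fold change of 2.62 (SE 0.64, adjusted p = 0.00513, limma). *Gria3* (ENSMUSG00000001986, chromosome X from 41400854 to 41678601) had 75.4 and 70.9 against 15.7 and 12.0. Its log2 fold change was 2.33 (SE 0.36, adjusted p = 7.95e-06, limma). Replicates of *Gria3* were close to each other in both groups. *Gria4* (ENSMUSG00000025892, chromosome 9 from 4417896 to 4796234) had 30.0 and 36.5 against 8.35 and 6.57, a log2 fold change of 2.02 (SE 0.50, adjusted p = 0.00673, limma). It did not pass with quantile normalization (adjusted p = 0.0552) or without limma's variance trend (adjusted p = 0.0531).

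*Gria1*, the most abundant AMPA subunit gene per kb in WT at 8.41, was the exception. It had 65.1 and 76.0 in S100A4-/- and 49.1 and 52.6 in WT. The S100A4-/- libraries lay above the WT libraries, but the log2 fold change of 0.46 (SE 0.26) did not pass (adjusted p = 0.370, limma). Summed over the 4 genes, the AMPA level was 24.9 and 27.3 per kb in S100A4-/- and 11.4 and 11.1 per kb in WT. Kainate receptor genes gave 0 calls among 4 tested, with log2 fold changes from 0.04 for *Grik5* to 1.84 for *Grik2*. *Grik2* was low, at 12.8 and 5.07 against 1.04 and 2.19.

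NMDA receptors need glycine as well as glutamate and pass calcium, and they are assembled from the obligatory GluN1 subunit, encoded by *Grin1*, with GluN2 subunits. Of the 3 genes tested, *Grin2b* (ENSMUSG00000030209, chromosome 6 from 135713233 to 136173511) was higher, with values of 24.8 and 16.2 in S100A4-/- and 5.22 and 2.19 in WT. Its log2 fold change was 2.24 (SE 0.68, adjusted p = 0.0368 with limma and 0.137 with DESeq2), and without the second WT library it was 1.76 and did not pass (adjusted p = 0.147, limma). *Grin1* had 39.4 and 44.6 against 25.1 and 14.2, with no overlap between the groups and a log2 fold change of 1.11 (SE 0.39) that did not pass (adjusted p = 0.0838, limma). *Grin2d* was at 0.61 (SE 0.54). The other 4 NMDA receptor genes were not analysed here.

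Metabotropic glutamate receptors are G protein-coupled, and 2 of the 7 tested were higher. *Grm6* encodes mGluR6, the receptor with which ON bipolar cells of the retina sense glutamate from photoreceptors (ENSMUSG00000000617, chromosome 11 from 50850685 to 50866208). It had 42.0 and 43.6 in S100A4-/- and 9.40 and 17.5 in WT, a log2 fold change of 1.66 (SE 0.42, adjusted p = 0.00849 with limma and 0.0729 with DESeq2). Without the first WT library it was 1.24 and did not pass (adjusted p = 0.0717, limma). *Grm7*, a presynaptic receptor of low affinity (ENSMUSG00000056755, chromosome 6 from 110645581 to 111567230), had 24 and 10 reads against 2 and 0. The ratio of read rates was 14.8, with an exact 95% counting interval of 3.79 to 127, and the limma log2 fold change was 3.14 (SE 0.96, adjusted p = 0.0368 with limma and 0.102 with DESeq2), which at such counts depends on the pseudocount. It was 3.95 without the first WT library and 2.33 without the second, where *Grm7* no longer passed (adjusted p = 0.132, limma). *Grm2* had the most negative log2 fold change of all receptor genes, -1.22 (SE 0.95), from 5.14 and 1.01 against 11.5 and 4.38, but these values overlap and it did not pass (adjusted p = 0.554, limma). With a library left out it ranged from -2.02 to -0.42.

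The proteins that act with mGluR6 in ON bipolar cells were listed as well, 10 genes for its G protein, the TRPM1 channel, their regulators and their anchors. All 10 had both S100A4-/- libraries above both WT libraries, as 23.7% of all genes did. Their log2 fold changes ran from 0.15 to 2.38, with a median of 0.73. Yet 0 reached 2-fold together with an adjusted p of at most 0.05. *Trpm1*, the channel that mGluR6 closes, had 1186 and 1005 in S100A4-/- and 593 and 562 in WT, a log2 fold change of 0.92 (SE 0.09, adjusted p = 1.08e-10, limma). *Gnb3* was at 0.91 (SE 0.22) and *Gpr179* at 0.69 (SE 0.15). *Nyx*, the anchor nyctalopin, was abundant in both groups, at 934 and 873 against 842 and 784. Thus *Trpm1* and *Nyx* had far higher values in WT lenses than *Grm6*, whose WT values were 9.40 and 17.5.

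**Figure D4:**
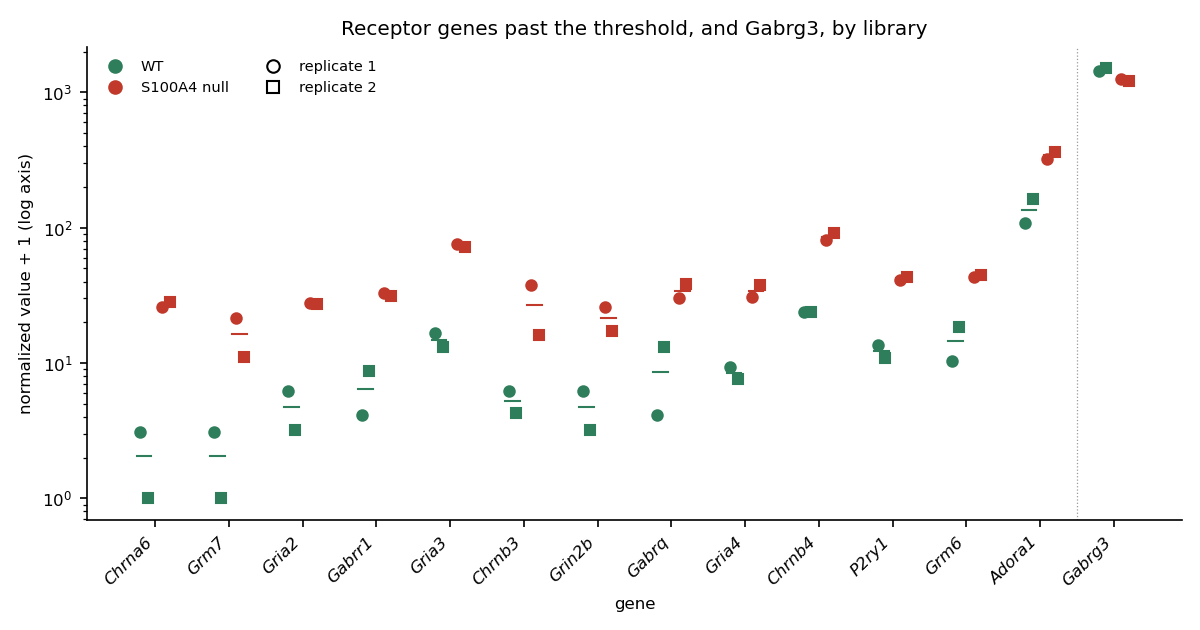
Normalized value + 1 (log axis) in each library of the 13 receptor genes past the threshold, ordered by fold change, and of *Gabrg3*, with WT in green, S100A4-/- in red, circles for the first and squares for the second library, and a line at each group mean. In the 13 genes every S100A4-/- point lies above both WT points, and in *Gabrg3* every S100A4-/- point lies below them.

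GABA-A receptors are chloride channels of 5 subunits, for which the annotation holds 19 genes by these symbols. Of the 13 tested, 2 were higher, beside 3.65% of all genes tested. *Gabrr1* encodes the rho 1 subunit, known from retinal bipolar cells (ENSMUSG00000028280, chromosome 4 from 33132521 to 33163588). It had values of 31.7 and 30.4 in S100A4-/- and 3.13 and 7.66 in WT, a log2 fold change of 2.42 (SE 0.57, adjusted p = 0.00374, limma). *Gabrq*, the theta subunit (ENSMUSG00000031344, chromosome X from 72825178 to 72842602), had 29.1 and 37.5 against 3.13 and 12.0. Its log2 fold change was 2.21 (SE 0.56, adjusted p = 0.00726 with limma and 0.0637 with DESeq2). Without the first WT library it was 1.38 and no longer passed (adjusted p = 0.0997, limma), and without the second WT library it was 3.04. The WT replicates of both genes differed from each other by more than the S100A4-/- replicates did.

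*Gabrg3*, the gamma 3 subunit, was the one receptor gene with an adjusted p of at most 0.05 in the other direction (on adjusted p alone 1.33% of all genes were lower, and 5.62% were higher). It had 1250.3 and 1210.1 in S100A4-/- and 1437 and 1500.0 in WT, a log2 fold change of -0.26 (SE 0.07, adjusted p = 0.0117, limma) and so well under 2-fold. The adjusted p was 0.0679 with DESeq2, 0.134 with libraries scaled to equal totals and 0.286 without limma's variance trend, and 0.0318 to 0.158 with a library left out, above 0.05 in 3 of those 4 fits. *Gabra3*, an abundant alpha subunit, had 497 and 506 against 476 and 519, which overlap, with a 95% interval of -0.18 to 0.21 for the log2 fold change. The other 9 tested GABA-A genes had log2 fold changes from -0.13 for *Gabra4* to 1.25 for *Gabra5*. *Gabra5* rested on 13 and 2 reads against 1 and 2, and was at 2.25 without the second S100A4-/- library. Of glycine receptors, *Glrb*, the beta subunit, had 32.5 and 32.4 against 27.1 and 44.9, and *Glra1*, the alpha 1 subunit, had 12.0 and 5.07 against 0 and 3.28. Neither passed.

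For acetylcholine, 3 of the 10 tested nicotinic receptor genes were higher and none of the 3 muscarinic ones, beside 3.65% of all genes tested. *Chrna6* encodes an alpha subunit known from dopamine neurons and retinal ganglion cells (ENSMUSG00000031491, chromosome 8 from 27403212 to 27413944). In S100A4-/- it had 29 and 27 reads against 2 and 0, a ratio of read rates of 24.3 with an exact 95% counting interval of 6.43 to 206. The limma log2 fold change was 3.95 (SE 0.83, adjusted p = 9.74e-04), the largest of the receptor genes. It was 4.76 without the first WT library and 3.13 without the second, and 4.01 and 3.88 without the first and second S100A4-/- library. *Chrna6* did not pass without limma's variance trend (adjusted p = 0.135). *Chrnb3*, a beta subunit that assembles with alpha 6 (ENSMUSG00000031492, chromosome 8 from 27368711 to 27399730), had values of 36.8 and 15.2 against 5.22 and 3.29, a log2 fold change of 2.26 (SE 0.64, adjusted p = 0.0206 with limma and 0.0573 with DESeq2). Its S100A4-/- replicates differed by more than 2-fold, and the log2 fold change was 1.65 without the first of them and 2.87 without the second, neither of which passed (adjusted p = 0.439 and 0.0614, limma). *Chrnb4*, the beta 4 subunit (ENSMUSG00000035200, chromosome 9 from 55028154 to 55048779), had 79.6 and 90.2 against 23.0 and 23.0, a log2 fold change of 1.84 (SE 0.30, adjusted p = 2.73e-05, limma).

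The muscarinic receptor gene *Chrm1*, a receptor through which acetylcholine raises calcium in lens cells, had 382 and 376 in S100A4-/- and 341 and 312 in WT. The S100A4-/- libraries lay above the WT ones, with a log2 fold change of 0.21 (95% interval -0.01 to 0.44) that did not pass (adjusted p = 0.318, limma). *Chrm2* and *Chrm3* were at 0.38 (SE 0.70) and 0.21 (SE 0.28). *Chrna1*, an alpha subunit of muscle receptors, had the second most negative log2 fold change of all receptor genes, -0.94 (SE 0.79), at values of 3.42 and 5.07 against 7.31 and 10.9.

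Of the receptor genes measured, 12 pairs were neighbours within 1 Mb on a chromosome, and in 7 of these neither gene passed. *Chrnb3* and *Chrna6* lie 3481 bases apart on chromosome 8, on opposite strands, and both were higher. In 4 other pairs a single gene was higher. *Chrna5* lies 20374 bases from *Chrnb4* on chromosome 9 and had 219 and 209 in S100A4-/- against 252 and 287 in WT, at a log2 fold change of -0.33 (SE 0.13, adjusted p = 0.163, limma). *Gabrr2*, a rho subunit 36655 bases from *Gabrr1* on chromosome 4, was at 0.28 (SE 0.34). *Glrb* lies 40763 bases from *Gria2* and was at -0.10 (SE 0.36), and *Gabra3* lies 168329 bases from *Gabrq* and was at 0.01 (SE 0.10). The difference within a pair was not tested.

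Adenosine and ATP act on cells in and outside the nervous system. *Adora1*, the A1 adenosine receptor that lowers cyclic AMP (ENSMUSG00000042429, chromosome 1 from 134199223 to 134235431), was the most abundant of the 13 higher receptor genes. It had 319 and 362 in S100A4-/- and 107 and 162 in WT, a log2 fold change of 1.36 (SE 0.16, adjusted p = 2.54e-08, limma). Without limma's variance trend it did not pass (adjusted p = 0.162). Its gene overlaps *Mybph* on the opposite strand, which had 11 and 2 reads against 0 and 3. *Adora2b*, which raises cyclic AMP, had 51.4 and 52.7 against 34.5 and 47.1, with a log2 fold change of 0.36 (SE 0.30). *P2ry1*, a receptor for ADP (ENSMUSG00000027765, chromosome 3 from 61002795 to 61008982), had 40.2 and 42.6 against 12.5 and 9.85, a log2 fold change of 1.81 (SE 0.43, adjusted p = 0.00436, limma). *P2ry2*, more abundant in WT, had 314 and 339 against 389 and 323, with an interval of -0.36 to 0.12. The 6 P2X channel genes gave 0 calls, with log2 fold changes from -0.54 for *P2rx5* to 0.65 for *P2rx3*. *P2rx6*, the highest of them per kb, had 255 and 273 against 232 and 276. In all, 10 of the 72 receptor genes overlap another gene of the table on the opposite strand, among them *Adora1*, *P2rx6*, *P2rx3*, *P2ry12*, *Grin2d* and *Chrnb2*, and as the strand setting of the counting is not given, reads of such pairs may not be told apart.

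Receptors for the monoamines gave 0 calls among 10 tested genes. *Drd4* had 355 and 364 in S100A4-/- and 349 and 362 in WT, with a 95% interval of -0.21 to 0.24 for the log2 fold change. *Drd1*, which raises cyclic AMP, had 23.1 and 36.5 against 12.5 and 12.0, a log2 fold change of 1.18 (SE 0.47, adjusted p = 0.142, limma) without overlap. *Drd2*, which lowers cyclic AMP, had the third most negative log2 fold change, -0.55 (SE 0.49), with overlapping values. Of adrenergic receptor genes, *Adra1d* had 14.6 and 16.2 against 14.6 and 1.10, so that the second WT library set its log2 fold change of 1.52 (SE 0.75). *Htr5a*, the serotonin receptor gene with the highest level, had 75.4 and 84.1 against 56.4 and 51.5, a log2 fold change of 0.56 (SE 0.25, adjusted p = 0.218, limma). Of 14 annotated serotonin receptor genes 2 were measured.

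The 13 genes differed in depth and in how far they rested on single libraries. In 7 of the 13 higher genes, *Gria2*, *Grin2b*, *Grm7*, *Gabrq*, *Gabrr1*, *Chrna6* and *Chrnb3*, at least 1 WT library had 3 reads or fewer, and in *Grm7* and *Chrna6* both had. Leaving out the first S100A4-/- library left 3 genes past the threshold, *Adora1*, *Chrnb4* and *Gria3*, and leaving out the second left the same 3. The log2 fold changes of several genes lost there hardly moved, that of *Gria2* being 2.62 and 2.63, of *Gabrr1* 2.39 and 2.45, of *P2ry1* 1.85 and 1.77 and of *Chrna6* 4.01 and 3.88. Of 56 genes that did not pass, 33 had a log2 fold change within 0.5 of 0, while 9 were higher and 1 was lower by 2-fold or more and did not pass.

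Other genes of transmission were examined by lists. Of 27 tested genes for transmitter synthesis and breakdown, 3 were higher, 0 lower, and the median log2 fold change was 0.03. The 3 were *Gad2* and *Gad1*, the enzymes that make GABA, at 3.80 (SE 0.93) and 1.53 (SE 0.31), and *Glul*, which turns glutamate into glutamine, at 1.55 (SE 0.05). *Gad2* had 24.0 and 15.2 in S100A4-/- and 0 and 1.10 in WT. Of 18 transmitter transporters, 7 were higher, 0 lower, and the median was 0.82. The largest differences among these 18 were those of the vesicular glutamate transporters *Slc17a8* at 2.62 (SE 0.49) and *Slc17a7* at 2.18 (SE 0.12), and of *Slc6a13*, which carries GABA, at 1.80 (SE 0.15). *Slc17a7* had 708 and 632 against 160 and 135.

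Of 42 auxiliary and scaffold proteins of these receptors, 3 were higher and 0 lower, with a median of 0.12. They were *Shisa6*, which binds AMPA receptors, at 2.82 (SE 0.62), *Lynx1*, which binds nicotinic receptors, at 1.72 (SE 0.29), and *Dlg2*, the scaffold PSD-93, at 1.47 (SE 0.25). G proteins, adenylyl cyclases, phospholipases and receptor kinases downstream of the G protein-coupled receptors gave 0 calls among 24 tested, with a median of 0.05. With the mGluR6 list and 4 receptors outside the symbol patterns, 14 of 125 genes (11.2%) in these lists were higher and 0 lower, beside 3.65% and 0.0744% of all genes.

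**Figure D5:**
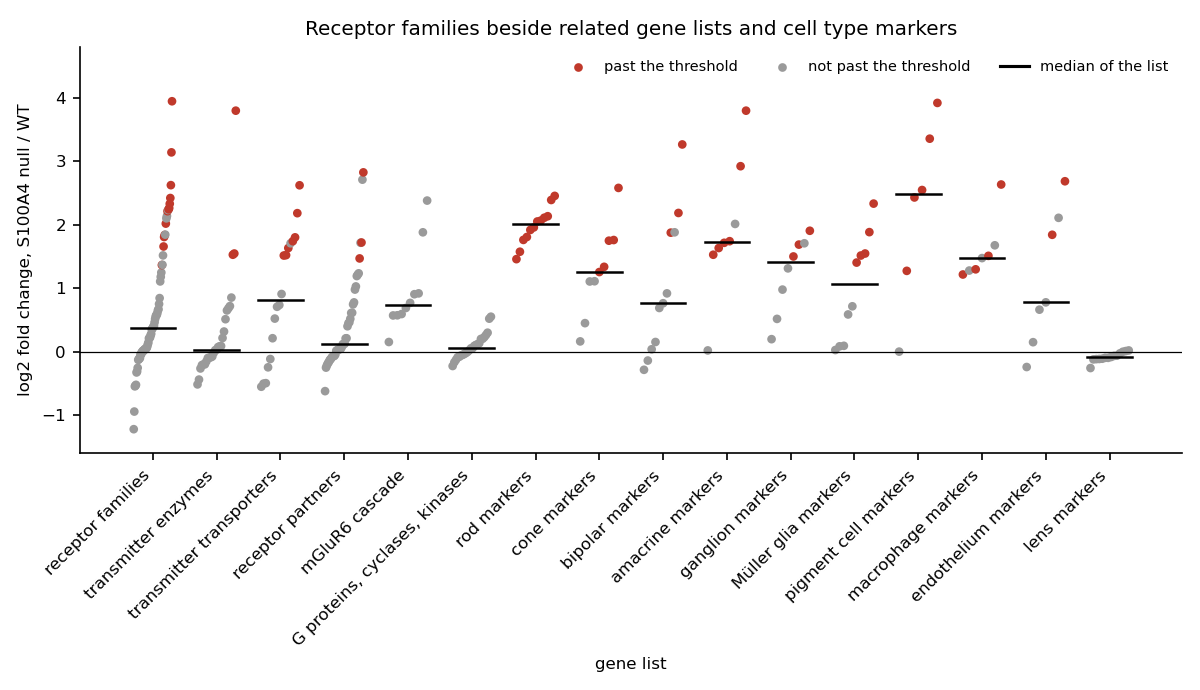
Log2 fold change (S100A4-/- over WT) of the tested genes of the receptor families, of lists of related genes and of cell type markers, with genes past the threshold for higher values in red and a bar at the median of each list. The receptor families have a median of 0.38, the rod markers of 2.00 and the lens markers of -0.09.

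Markers of retinal cells were measured in the same libraries. Beside their counts, 3.65% of all genes tested were higher, and 7.5% of those with a mean value under 50. All 12 rod markers were higher, with summed values of 11109 and 10893 in S100A4-/- and 2741 and 2882 in WT, *Gnat1* being the most abundant. Of 9 cone markers 5 were higher, with sums of 319 and 340 against 139 and 141 (most abundant, *Opn1sw*). Of 11 bipolar cell markers measured among 12, 3 were higher, with sums of 4475 and 4180 against 3653 and 3452 (most abundant, *Prkca*). *Vsx1* was not among the genes analysed and *Lhx4* was at 0 in the second WT library. Of 8 amacrine cell markers measured among 10, 6 were higher, with sums of 2708 and 2685 against 1827 and 1929 (most abundant, *Tfap2a*), or 1164 and 1140 against 317 and 391.97 without *Tfap2a*, *Gad2* being at 0 in the first WT library. Of 8 ganglion cell markers measured among 9, 3 were higher, with sums of 486 and 511 against 287 and 266 (most abundant, *Pou4f1*), and *Slc17a6* was at 0 in the second WT library. Of 3 horizontal cell markers measured among 5, 0 were higher, with sums of 170 and 196 against 157 and 172 (most abundant, *Sept4*). Without *Sept4* the sums were 26.6 and 27.4 against 7.31 and 7.66. Of 10 Müller glia markers 5 were higher, with sums of 97631 and 99288 against 85773 and 86595, most of it *Dkk3*, or 19198 and 18972 against 7918 and 8565 without *Dkk3*. *Gad1*, *Gad2*, *Glul*, *Slc1a3*, *Slc6a9* and several other markers also stand in the transmission lists above.

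Markers of other ocular and vascular cells were examined as well, beside the same shares of 3.65% and 7.5%. Of 6 pigment cell markers measured among 7, 5 were higher, with sums of 1672 and 1737 in S100A4-/- and 682 and 754 in WT (most abundant, *Oca2*), or 1177 and 1230 against 174 and 261 without *Oca2*. For macrophages 4 of 7 were higher, with sums of 304 and 257 against 105 and 89.8 (most abundant, *Csf1r*), and for endothelium 2 of 7, with sums of 448 and 454 against 170.2 and 209 (most abundant, *Flt1*). Of 4 smooth muscle markers 1 was higher, *Myh11*, and of 3 Schwann cell markers 0. None of the 14 lens markers passed the threshold in either direction, and their median log2 fold change was -0.09. In 9 of the 14 both S100A4-/- libraries lay below both WT libraries, as in 23.2% of all genes, and 5 were lower at an unadjusted p under 0.05, as were 6.71% of all genes. *Grifin*, a lens galectin, was at -0.26 (SE 0.04, adjusted p = 1.24e-05, limma), under 2-fold. The part of other cell types in the receptor values was not tested.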

How the data were processed

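Samples were grouped by their titles into 2 S100A4-/- and 2 WT libraries. The labels call them biological repeats, each a pool of 6 to 12 lenses, and the sexes in each pool are not given in the sources used here. Per the labels and the study's methods, poly(A) RNA was made into stranded libraries that were sequenced together in 1 lane, and reads were trimmed with Trim Galore, mapped with STAR (GRCm38, mm10), counted per gene with HTSeq when they mapped to a single locus, and normalized with DESeq2. The authors dropped genes that stayed under 10 reads in every library. Tool versions and the strand setting of the counting are not given in the sources used here. The signal values the authors deposited are counts divided by 1 size factor per library, not divided by gene length. In each library 100.0% of them were whole reads within a tolerance of 0.02, so reads were recovered by division. There were 0 sample columns without a sample.

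Symbols and positions came from GENCODE M21 (GRCm38), which matched 14782 of 14924 identifiers. Groups were compared with limma 3.58.1 (lmFit, eBayes with trend) on log2(value + 1) for genes reaching a value of 10 in 1 library or more, so fold changes of low genes are understated. Levels per kb divide by the union of annotated exons. SD and n refer to libraries, and intervals are 95%. Intervals from reads cover counting error only, and 3 reads was the floor, worth 2.57 and 3.04 in S100A4-/- and 3.13 and 3.28 in WT. Alternatives were pseudocounts of 0.5 and 5, no filter, a mean of at least 50, TMM, equal totals and quantile scaling, no variance trend, the replicate number as a block, DESeq2 1.42.0 and edgeR 4.0.16 on recovered reads, adjusted p alone, limma's treat, and each library left out. On data simulated for this comparison, limma called 201 of 14422 genes, among them all 200 changed. The changed genes were all drawn from those with a mean value of at least 50. The simulation therefore does not show how limma performs on lower genes, where 11 of the 13 higher receptor genes lie.

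Named receptor genes are those past the threshold, the highest per kb of each class in WT, the 3 most negative, those with an adjusted p of at most 0.05 under 2-fold, and members needed to account for a class. Of each list of related genes, up to 3 called genes with the largest change are named. *Trpm1*, *Gnb3*, *Gpr179*, *Nyx*, *Mybph*, *Grifin* and the genes named in the closing section were picked with their values in view. Some genes are not reported here and were taken out of the lists after the results were first computed. The receptor genes, lists, markers and tests were chosen with earlier results of these data known. Python 3.11.15 with pandas 2.3.3, scipy 1.17.1, numpy 2.4.6 and matplotlib 3.10.9 was used beside R 4.3.3.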

Additional observations from a re-analysis of the deposited data

How the results depend on the processing

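The count of 13 higher receptor genes was 13 with pseudocounts of 0.5 and 5, no filter, TMM factors, equal totals, edgeR and adjusted p alone, and in each the same 13 genes passed. It was 8 with DESeq2 (without *Chrnb3*, *Gabrq*, *Grin2b*, *Grm6* and *Grm7*), 7 with quantile normalization (without these 5 and *Gria4*), 3 without the variance trend (*Chrnb4*, *Gria3* and *P2ry1*), 2 with treat (*Chrna6* and *Gria3*) and 2 with a mean of at least 50, which leaves 26 receptor genes. Leaving out 1 library gave 3 to 13. These fits leave a group with a lone library, which is assumed to vary like the other group. Without the first WT library *Grin1* reached 1.49 (adjusted p = 0.0230, limma) and *Adra1d* also passed, while *Gabrq* and *Grm6* did not, so that 11 of the original 13 passed. Lower receptor genes numbered 1 with adjusted p alone (*Gabrg3*) and 0 with each library left out. All higher genes (539) numbered 281 with a mean of at least 50, 174 without the trend, 831 with adjusted p alone, 168 with treat and 275 to 535 with a library left out. All lower genes (11) numbered 6, 7, 197 and 3 in the same order, 23 with quantile normalization, 6 with DESeq2 and 6 to 13 with a library left out. Higher genes of the related lists (14) numbered 8 with a mean of at least 50, 3 without the trend, 28 with adjusted p alone, 4 with treat and 8 to 16 with a library left out. The median log2 fold change of receptor genes (0.38) was 0.30 with a pseudocount of 5, 0.043 with a mean of at least 50, 0.11 with quantile normalization and 0.23 to 0.39 with a library left out. Apart from the smaller numbers of genes tested, the cause of these shifts was not tested.

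With the replicate number as a block 13 receptor genes were higher, the same 13, and 576 genes of all. The correlation of the replicate differences between the groups was 0.0119 across 14780 genes, which are not independent. Whether libraries of the same number share a litter or preparation is not given, and this correlation cannot decide it. No higher receptor gene changed sign under any alternative run. This could hardly have come out otherwise, as the 13 were picked for a large change and their groups did not overlap. Among receptor genes that did not pass, signs turned near 0. The log2 fold change of *Drd4* was -0.022 with quantile normalization, and that of *Adra2c* 0.020 with equal totals and 0.002 with quantile normalization. With a library left out it ranged from -0.049 to 0.138 for *Grik5*, -0.050 to 0.074 for *Gabra3*, -0.455 to 0.251 for *Glrb*, -0.094 to 0.005 for *Chrna4*, -0.065 to 0.186 for *P2rx6*, -0.255 to 0.014 for *P2ry2*, -0.013 to 0.042 for *Drd4* and -0.026 to 0.009 for *Adra2c*.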

Other observations

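Some receptor genes lie outside the symbol patterns. *Chrng*, the fetal gamma subunit of the muscle nicotinic receptor, was abundant in both groups, with values of 1228 and 1528 in S100A4-/- and 1510 and 1558 in WT, and its log2 fold change of -0.16 (SE 0.08) did not pass (adjusted p = 0.238, limma). *Gabbr1*, a subunit of the metabotropic GABA-B receptor, had 317 and 320 against 200.5 and 228, a log2 fold change of 0.57 (SE 0.13, adjusted p = 0.00212, limma) under 2-fold. *Hrh3*, the H3 histamine receptor, was higher, with 19.7 and 19.3 against 2.09 and 4.38 and a log2 fold change of 2.33 (SE 0.70, adjusted p = 0.0328, limma).

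The vesicular monoamine transporter gene *Slc18a2* went the other way from most transporters. It had 782 and 719 in S100A4-/- and 1114 and 1014 in WT, without overlap, and a log2 fold change of -0.50 (SE 0.08, adjusted p = 1.36e-05, limma), which is under 2-fold. The dopamine transporter gene *Slc6a3* had 36.8 and 39.5 against 43.9 and 47.1, at -0.25 (SE 0.31). Among glycine and GABA transporters, *Slc6a9* had 847 and 897 against 254 and 310, a log2 fold change of 1.63 (SE 0.10), and *Slc6a13* had 531 and 472 against 114 and 180, at 1.80 (SE 0.15), and both passed the threshold.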
